A study of Mus musculus with 22 samples.

Results

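The liver of mice carrying the C26 colon carcinoma was compared with that of sham-injected mice, gene by gene. All mice were wild-type males of the CD2F1 strain. The CT group (n = 6) was sham-injected, given vehicle and carried no tumour, and the C26 group (n = 8) had received C26 cells and no bile acid. These 14 libraries are all the CT and C26 libraries of the 22 in the series, chosen by their labels. The other 8, from C26 mice given taurodeoxycholic acid, entered the filter on low counts, the scaling and the estimate of the spread. They were not part of the contrast. The C26 line is a mouse colon carcinoma that grows in this hybrid strain and is used as a model of cancer cachexia, the wasting of muscle and fat in cancer. Neither age nor time after injection, tumour size or food intake is given in the sources used here, so that a distant tumour, the wasting and a lower food intake cannot be told apart in these groups.

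The liver answers a distant inflammation by switching its hepatocytes, the cells that make up most of its mass, from metabolic work to the making of plasma proteins. Cytokines of the interleukin-6 family, which act through JAK kinases and STAT3, and interleukin-1, which acts through the adaptor MyD88, drive that switch. Secreted proteins are threaded into the endoplasmic reticulum (ER), folded, given sugar chains and carried through the Golgi, while the oxidation of amino acids and fats takes place in mitochondria and peroxisomes. The genes of these machineries, and those of transport, adhesion, cytoskeleton and signalling, are described here, and the acute phase and drug metabolism genes are left aside.

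PolyA RNA of whole liver was sequenced to 16.5 to 25.3 M counts per library in CT and 17.5 to 28.1 M in C26 (M, 1000000 counts). Of 15448 genes in the deposited table, 14785 had enough counts to be tested with edgeR's quasi-likelihood F test, and a gene was called at a Benjamini-Hochberg adjusted p under 0.05 over all of them. In C26, 4266 genes were called higher, which is 28.9% of those tested, and 4321 lower, which is 29.2%. These shares are the background for each list below. They depend on the scaling, since 4889 genes were called higher and 3708 lower with upper-quartile scaling. Small median changes of a list are read with that limit. By more than 1 log2 unit, 1560 genes rose (10.6%) and 1112 fell (7.52%). In 2100 genes (14.2%) all C26 libraries stood above all CT libraries, and in 2257 (15.3%) all stood below. Levels are counts per 1000000 counts (CPM) after TMM scaling, and each change is a log2 fold change of C26 over CT with its standard error (SE). The labels give no further source of the replicates than the number of mice per group.

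All 15 hepatocyte markers checked, from albumin to the transcription factor gene Hnf4a, were tested and above 0 in every library, as the label liver implies. Of these, 4 rose, 7 fell and 4 were not called, and their summed level went from 71180 to 82800 CPM in CT to 35839 to 46855 CPM in C26. The median log2 fold change of the list was -0.05, so that the sum does not stand for all its members. In whole liver, fewer cells of a type and less RNA per cell cannot be told apart, here or in any result below. The library C26 02 stood apart from the other C26 libraries in 14 of the genes named here, in 13 of them towards the CT level, and CT 01 stood apart in 4, all towards the C26 level. Without C26 02, 4341 genes were called higher and 4367 lower.

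Outside the acute phase and drug metabolism families, the genes with the largest changes included enzymes of methyl transfer, a citrate importer, a granule protease and regulators of G protein signals and ion flow. Nnmt, which encodes nicotinamide N-methyltransferase and uses up S-adenosylmethionine and vitamin B3, stood at 0.469 to 5.25 CPM in CT (median 1.27) and 272 to 563 CPM in C26 (median 369). All 8 C26 libraries lay above all 6 CT libraries (a log2 change of 7.71 with SE 0.44, adjusted p = 2.55e-13), and the change was 8.35 without CT 07, the highest CT library. Inmt, which encodes another small-molecule N-methyltransferase using the same methyl donor, moved the opposite way. It stood at 342 to 409.9 CPM in CT (median 384) and 1.54 to 14.8 CPM in C26 (median 4.08), with no overlap (a log2 change of -6.15 with SE 0.41, adjusted p = 6.07e-12).

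Slc13a5, which encodes the plasma membrane importer of citrate, stood at 0.787 to 2.26 CPM in CT (median 1.56) and 126 to 402 CPM in C26 (median 269), again without overlap (a log2 change of 7.41 with SE 0.28, adjusted p = 7.17e-17). Cyb561, a cytochrome b561 that carries electrons from ascorbate across membranes, rose by 6.41 (SE 0.21). Moxd1, a relative of dopamine beta-hydroxylase, spread widely in both groups, at 0 to 6.12 CPM in CT (median 1.69) and 16.8 to 325 CPM in C26 (median 151). Its change was 6.21 (SE 0.66), and 6.95 without CT 06.

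A further set was near 0 in CT, so that the fold rests on few counts. Igdcc4, a cell surface protein of the immunoglobulin superfamily, had 19 raw counts over the 6 CT libraries together and stood at 0 to 0.262 CPM in CT (median 0.148) and 10.7 to 125 CPM in C26 (median 49.3). Prtn3, or proteinase 3, is known as a granule protease of neutrophils and had 17 raw CT counts. It stood at 0 to 0.226 CPM in CT (median 0.114) and 31 to 58 CPM in C26 (median 43.7). Summed over their list, neutrophil and monocyte markers stood at 31 to 72 CPM in C26, and the cell source of Prtn3 was not tested. Prtn3 overlaps Plppr3 on the opposite strand, which was also called higher. The strand setting of the counting is not given in the sources used here. Atp6v0a4, a kidney-type subunit of the vacuolar proton pump, had 20 raw CT counts and stood at 7.55 to 23.9 CPM in C26. In each of these 3 genes every C26 library lay above every CT library.

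Among the genes that fell, Rgs16, which shortens signals from G protein-coupled receptors, stood at 112 to 230.1 CPM in CT (median 159) and 1.08 to 14.4 CPM in C26 (median 2.08). The highest C26 value was that of C26 02, and the change of -5.34 (SE 0.42) was -5.93 without it. Hcn3, a pacemaker-type cation channel, fell from a median of 33.2 to 0.40 CPM (a log2 change of -5.61 with SE 0.39, adjusted p = 1.27e-11), and the change was -6.46 without C26 02. It overlaps the pyruvate kinase gene Pklr on the opposite strand, which was called lower as well. Etnppl, which breaks down phosphoethanolamine, fell by 5.10 (SE 0.41), and Adgrv1, a very large adhesion receptor, fell by 5.18 (SE 0.31).

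Slco1a1, an uptake transporter of organic anions that is abundant in male mouse liver, fell by 4.20 (SE 0.60), and Hsd3b5, a male-type steroid dehydrogenase, fell by 4.04 (SE 0.68). Acot3, a peroxisomal thioesterase, fell by 5.0 (SE 0.41). Aldh3a2, which oxidises fatty aldehydes, fell by 4.02 (SE 0.26), and Slc17a8, a vesicular glutamate transporter, fell by 4.01 (SE 0.30). In none of these 9 falling genes, or in Inmt, did a C26 library reach the lowest CT library.

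**Figure D1:**
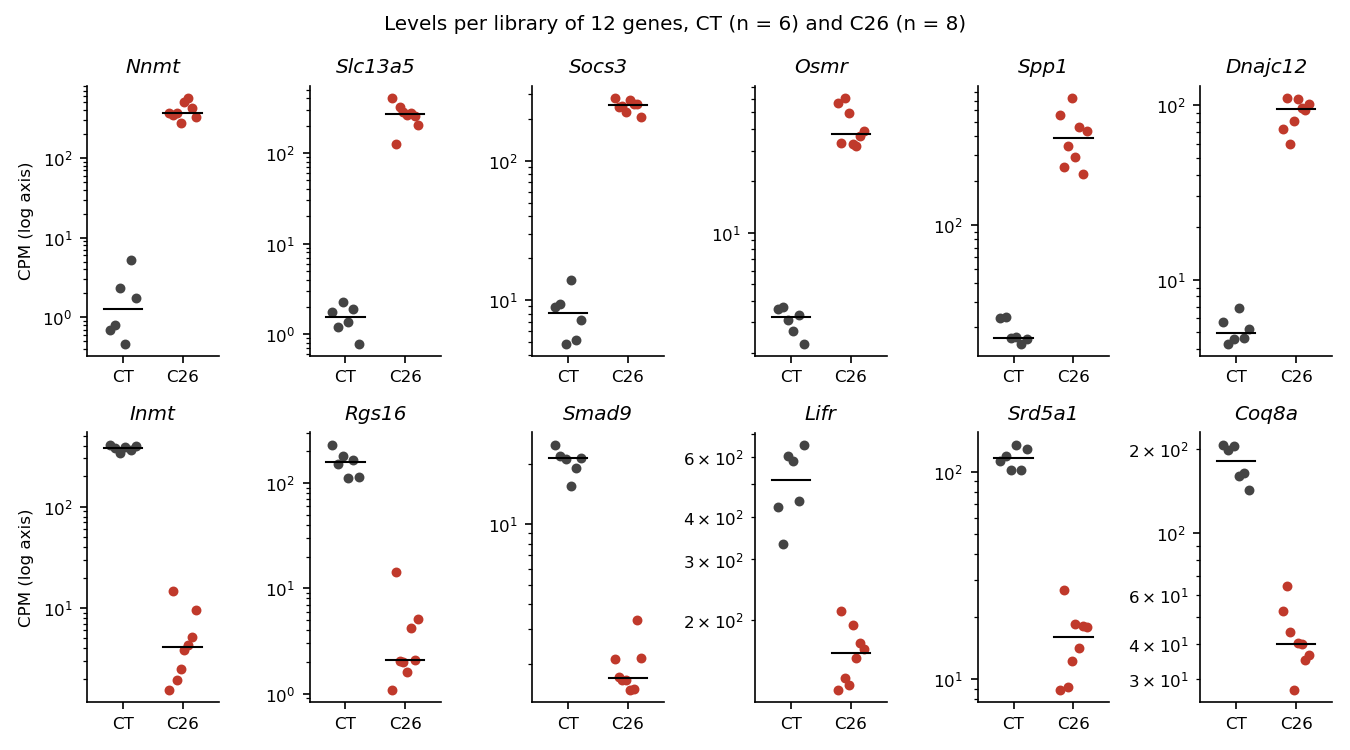
Level of 12 genes in each library, in CPM on a log axis that differs between panels, for CT (grey, n = 6) and C26 (red, n = 8). Each point is a library and each bar the group median. In all 12 genes the groups do not overlap.

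Receptors for oncostatin M, interleukin-1 and interleukin-17 rose, with the main transducer of interleukin-6 signals and its inhibitor. Of 30 genes of the JAK and STAT pathway with its interleukin-6-family receptors, 14 rose, 7 fell and 9 were not called, against 28.9% and 29.2% of all genes. Stat3, the transcription factor of that pathway, stood at 82.9 to 102 CPM in CT (median 94.6) and 304 to 363 CPM in C26 (median 337). Socs3, the feedback inhibitor that STAT3 itself induces, stood at 4.86 to 13.8 CPM in CT (median 8) and 206 to 282 CPM in C26 (median 252). Both rose without overlap, Stat3 by 1.87 (SE 0.07) and Socs3 by 4.92 (SE 0.19).

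The receptor subunits did not move together. Osmr, the signalling chain for oncostatin M, rose by 3.78 (SE 0.17), with a median of 3.21 CPM in CT (range 2.26 to 3.67) and 37.7 CPM in C26 (range 31.9 to 60.4). Lifr, the receptor for leukaemia inhibitory factor that shares the same partner chain, fell by 1.67 (SE 0.13), with a median of 515 CPM in CT (range 334 to 651) and 159 CPM in C26 (range 124 to 212). The kinase gene Jak3 rose by 2.51 (SE 0.10), and it overlaps Insl3 on the same strand, which was also called higher. Ptpn1, a phosphatase that turns JAK signals off, rose by 1.43 (SE 0.08). Socs1, the inhibitor best known from interferon signalling, had 70 raw counts over the CT libraries, 44 of them in CT 06, and rose by 4.84 (SE 0.35), or 5.87 without CT 06.

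Among 36 interleukins and interleukin receptors, 20 rose, 7 fell and 9 were not called (median 0.71). Il17ra, the shared receptor chain for interleukin-17, stood at 12.7 to 18.7 CPM in CT (median 17.1) and 108 to 153 CPM in C26 (median 130.3) and rose by 2.97 (SE 0.11). Il1r1, which binds interleukin-1, rose by 2.37 (SE 0.14), while Il1rap, the partner chain that it needs to signal, fell by 1.08 (SE 0.08). Il13ra1, a receptor chain for interleukin-13 and interleukin-4, rose by 2.18 (SE 0.09). Il18bp, a secreted decoy that holds interleukin-18, rose by 2.81 (SE 0.10). Il33, an alarmin kept in the nucleus, rose by 4.13 (SE 0.32). The receptor chains Il15ra and Il17rc fell by 0.93 (SE 0.10) and fell by 0.38 (SE 0.07), and for Il17rc the groups overlapped.

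Tumour necrosis factor (TNF) receptors and adaptors followed the same direction, with 20 of 40 higher and 3 lower. Tnfrsf1a, the main TNF receptor, rose by 1.93 (SE 0.09), the decoy receptor Tnfrsf11b, or osteoprotegerin, by 2.06 (SE 0.12), and the death receptor Fas by 1.35 (SE 0.08). Tnfsf10, the death ligand TRAIL, fell by 2.26 (SE 0.23), and the orphan receptor Tnfrsf19 fell by 3.41 (SE 0.27). Of 24 Toll-like receptors and their adaptors, 14 rose, 2 fell and 8 were not called. Myd88, the adaptor that these receptors share with interleukin-1, rose by 1.62 (SE 0.09), Tlr2, which senses bacterial lipoproteins, by 2.73 (SE 0.23), and Cd14, a co-receptor for endotoxin, by 3.23 (SE 0.35). Tlr5, the flagellin receptor, fell by 1.24 (SE 0.25).

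Markers of myeloid cells moved with these groups. Summed over the list, neutrophil and monocyte markers stood at 6.14 to 11.1 CPM in CT and 31 to 72 CPM in C26, and 11 of 12 were called higher. Kupffer cell and macrophage markers stood at 537 to 588 CPM in CT and 621 to 891 CPM in C26, with 12 of 14 called higher. Their part in the rise of the receptor genes was not tested. The B and plasma cell list had 2 of 13 markers higher and 2 lower (median -0.37), with summed levels of 16.4 to 26.9 CPM in CT and 12.7 to 34.5 CPM in C26. Of 24 Fc, scavenger and phagocytic receptors 20 rose and 4 were not called. Of 38 galectins and C-type lectins, which include lectins secreted by hepatocytes, 24 rose and 6 fell.

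Immediate early genes, the fast transcription factors and regulators that many stimuli switch on, were called higher in 19 of 28 cases and lower in 2 (median 0.87). Fosl2, a partner in the AP-1 complex, rose by 2.21 (SE 0.13), Cebpd, a C/EBP factor of the acute phase, by 2.55 (SE 0.21), and the antiproliferative gene Btg2 by 3.21 (SE 0.28). The classic members were less clear. Fos rose by 1.46 (SE 0.43), or 2.46 without CT 01, which held 54 of the 98 raw CT counts. Egr1 stood at 0.892 to 63.2 CPM in CT (median 6.24) and 17.1 to 72.6 CPM in C26 (median 27.9) and was not called (1.17, SE 0.60, adjusted p = 0.0962), but was called at 2.48 without CT 01. Myc stood at 1.29 to 47 CPM in CT (median 7.40) and 4.83 to 9.17 CPM in C26 (median 6.54) and was not called (-0.97, SE 0.46, adjusted p = 0.0737). Its change was 0.20 without CT 06, the highest CT library, and it was called lower without CT 01 (-1.20), CT 05 (-1.14) or CT 07 (-1.19). Klf10, induced by TGF-beta, fell by 0.94 (SE 0.18).

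The machinery that carries proteins into the secretory pathway rose broadly. Of 24 genes for translocation into the ER and signal peptide cleavage, 16 rose and 1 fell, 66.7% against a background of 28.9%. The steps were small (median 0.30). Sec61a1, the channel through which nascent chains enter the ER, stood at 108 to 132 CPM in CT (median 116) and 156 to 205 CPM in C26 (median 188) and rose by 0.64 (SE 0.08). Spcs2, a signal peptidase subunit, rose by 0.68 (SE 0.07), and Ssr2, a subunit of the complex beside the channel, rose by 0.51 (SE 0.06). Sec62, which serves proteins that enter after their synthesis, was the member called lower, at -0.19 (SE 0.06), and was not called with upper-quartile scaling (-0.12) or after a trend on length and GC was removed (-0.11).

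The attachment of N-linked sugar chains followed. 20 of 32 genes rose and 6 fell (median 0.34). Within the oligosaccharyltransferase, which moves the finished chain onto the protein, Ostc rose by 0.87 (SE 0.08), the catalytic subunit Stt3b by 0.77 (SE 0.06), Ddost by 0.63 (SE 0.06) and the other catalytic subunit Stt3a by 0.40 (SE 0.06). Alg12, a mannosyltransferase that extends the chain, stood at 5.05 to 6.73 CPM in CT (median 6.42) and 7.46 to 16 CPM in C26 (median 14.1) and rose by 1.16 (SE 0.14). Alg11, which adds earlier mannoses on the cytosolic side, fell by 0.56 (SE 0.08).

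Enzymes that make disulfide bonds had the highest median of the secretory lists. Of 19, 12 rose and 2 fell (median 0.47), and in 11 of them all C26 libraries stood above all CT libraries, against 14.2% of all genes. Qsox1, a secreted sulfhydryl oxidase, stood at 220.4 to 246 CPM in CT (median 228) and 793 to 1022 CPM in C26 (median 935), a log2 change of 1.98 with SE 0.07, adjusted p = 1.69e-17. Pdia4 rose by 1.61 (SE 0.12), Pdia5 by 1.36 (SE 0.08) and Pdia6 by 0.45 (SE 0.07), all isomerases of the ER. Tmx4, a membrane-bound member, fell by 0.59 (SE 0.11) with overlapping groups.

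Beyond the ER the picture was mixed. Among 40 genes of COPII and COPI vesicle coats and their cargo receptors, 20 rose, 7 fell and 13 were not called (median 0.14). The cargo receptors Tmed9 and Tmed10 rose by 0.92 (SE 0.09) and by 0.55 (SE 0.06). Of 23 genes of the coats and their assembly, 11 rose and 6 fell. Among those that fell, the small GTPase gene Sar1b fell by 0.96 (SE 0.09), the outer coat gene Sec31b fell by 1.52 (SE 0.13) and the inner coat gene Sec24a fell by 0.57 (SE 0.09). Golgi enzymes that finish the chains were called higher in 14 of 36 cases and lower in 1. St3gal4, a sialyltransferase, rose by 1.55 (SE 0.08), B4galt1, the galactosyltransferase before it, by 1.24 (SE 0.09), and Mgat5, which adds a branch, by 1.79 (SE 0.14). Cmas, which activates sialic acid, was the member that fell (-0.39, SE 0.06).

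The hexosamine pathway, which supplies the sugar for these chains, had 4 of 12 members higher and 3 lower. Gfpt1, its first enzyme, rose by 0.59 (SE 0.12), with overlapping groups, and Pgm3, a mutase further on, rose by 0.87 (SE 0.12). Ogt, which places the same sugar on proteins of the cytosol and nucleus, fell by 0.91 (SE 0.11).

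**Figure D2:**
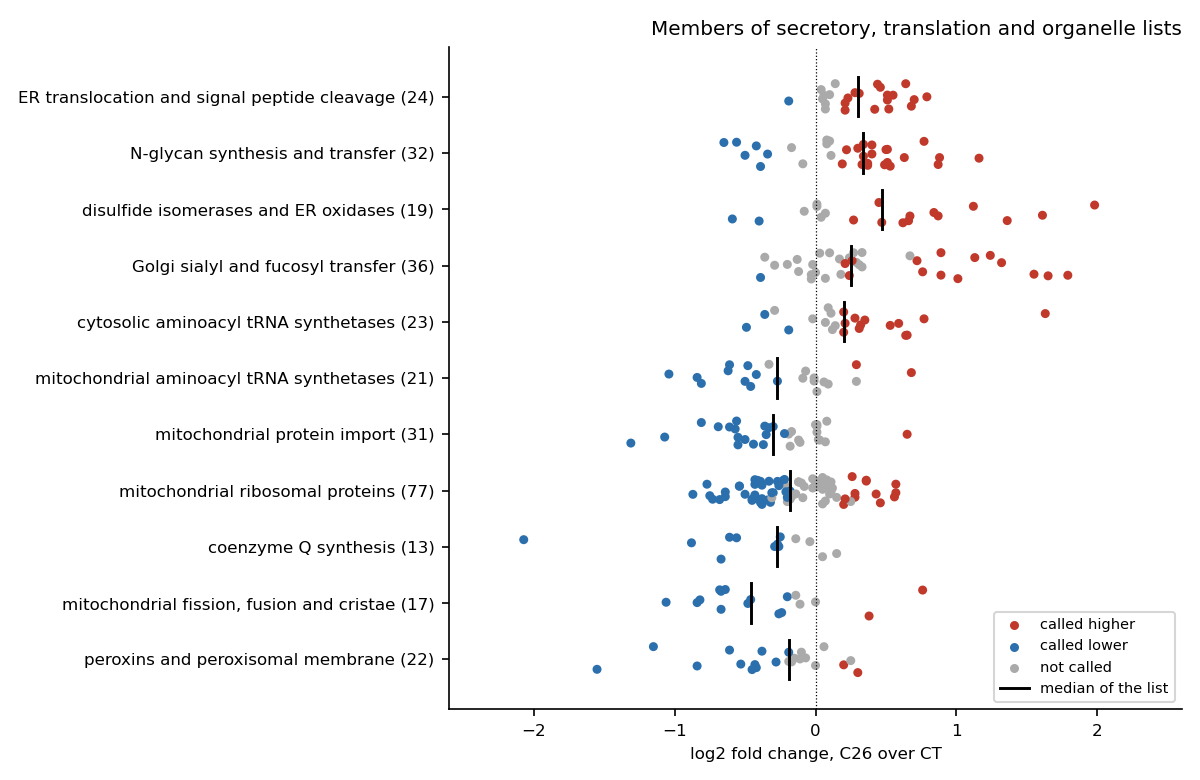
Log2 fold change of each member of 11 lists, with called genes in red (higher) and blue (lower), other genes in grey and a black bar at the median of the list. Numbers in brackets are genes tested. The 5 upper lists have medians from 0.20 to 0.47 and the 6 lower lists from -0.46 to -0.18.

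Promoters of these genes were searched for the ER stress response element (ERSE), the paired sites CCAAT and CCACG separated by 9 bases, to which NF-Y and ATF6 bind. The windows were RefSeq's, in GRCm38.p6, 300 bases from 250 before to 50 after a start, with both strands searched, and 10750 of the genes tested had such a window. Only 19 of them held the exact letters (0.177%). These were 12 of the 3177 genes called higher (0.378%) and 2 of the 3196 called lower (0.0626%), and the other 5 were not called. The counts are of genes, not of separate elements. With both strands searched, an element between neighbouring genes can be counted for each of them, which was not checked. Among the 12 are Hspa5, Hsp90b1, Calr, Creld2, Derl3 and Syvn1, known genes of ER folding or of the removal of misfolded proteins, and also Acnat2, Spats2l and Zfp57, which are not. The ER chaperone gene Canx held the element and was not called. All of these are named for holding the element. Of the lists above, 17 of 24 translocation, 26 of 32 N-glycan, 35 of 40 vesicle coat and 15 of 19 disulfide genes had a window, as did 33 of 40 J-domain genes. Among these, 3 genes held the element, and all 3 were called higher. In the lists they come from, 20 of 32 N-glycan, 12 of 19 disulfide and 12 of 40 J-domain genes were called higher. The 3 genes are Alg12, Dnajc3, which encodes the ER co-chaperone P58IPK, and Pdia6. Their 250 bases before the start are shown 5′ to 3′ on the strand of the gene, with both sites of the element in capitals, because they hold the element.
Alg12, minus strand, chr15:88819319-88819568: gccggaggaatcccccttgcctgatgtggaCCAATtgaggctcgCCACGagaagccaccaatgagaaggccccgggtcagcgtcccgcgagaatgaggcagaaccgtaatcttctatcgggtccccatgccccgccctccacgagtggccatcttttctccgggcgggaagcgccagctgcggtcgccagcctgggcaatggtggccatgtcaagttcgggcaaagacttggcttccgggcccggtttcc
Dnajc3, plus strand, chr14:118937682-118937931: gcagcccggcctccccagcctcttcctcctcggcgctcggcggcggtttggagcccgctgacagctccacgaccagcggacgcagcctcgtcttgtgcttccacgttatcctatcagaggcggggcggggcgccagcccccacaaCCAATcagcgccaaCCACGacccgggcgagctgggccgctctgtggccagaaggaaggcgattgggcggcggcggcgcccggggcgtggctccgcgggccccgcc
Pdia6, plus strand, chr12:17266339-17266588: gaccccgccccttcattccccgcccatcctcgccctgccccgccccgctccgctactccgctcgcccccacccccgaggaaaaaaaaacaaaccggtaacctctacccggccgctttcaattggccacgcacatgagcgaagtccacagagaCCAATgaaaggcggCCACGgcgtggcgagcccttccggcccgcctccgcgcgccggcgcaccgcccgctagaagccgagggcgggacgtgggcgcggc
The element begins 220 bases before the start in Alg12, 105 in Dnajc3 and 98 in Pdia6, each time in the orientation given. Dnajc3 rose by 0.54 (SE 0.07), next to the values given above for Alg12 and Pdia6. The letters TTCNNNGAA, to which STAT factors bind (N is any base), were in 8.47% of all windows, 9.03% of those of genes called higher and 7.63% of those of genes called lower. For the cyclic AMP element TGACGTCA these shares were 3.42%, 3.08% and 3.19%. A match is a description of the letters only.

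The enzymes that charge transfer RNAs rose in the cytosol and fell in mitochondria by count, and the difference between the lists was not tested. Of 23 cytosolic synthetases and their scaffold proteins, 13 rose, 3 fell and 7 were not called (median 0.20). Wars, the tryptophan enzyme, stood at 11.5 to 13.7 CPM in CT (median 12.8) and 22.6 to 47.8 CPM in C26 (median 40.1) and rose by 1.63 (SE 0.13), while it overlaps Wdr25 on the opposite strand, also called higher. Yars and Lars, for tyrosine and leucine, rose by 0.77 (SE 0.07) and by 0.65 (SE 0.07). Dars and Kars, for aspartate and lysine, fell by 0.49 (SE 0.06) and fell by 0.36 (SE 0.07).

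Their mitochondrial counterparts went the other way, with 2 of 21 higher and 10 lower (median -0.27). Nars2, for asparagine, fell by 1.04 (SE 0.11), Fars2, for phenylalanine, fell by 0.84 (SE 0.07), and Gatb, a subunit of the enzyme that corrects glutamate to glutamine, fell by 0.81 (SE 0.07). Ears2, for glutamate, rose by 0.68 (SE 0.10).

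Ribosome assembly factors were called higher in 17 of 52 cases, 32.7% and so close to the background of 28.9%, and lower in 7. Heatr1, which acts on the small subunit precursor, rose by 1.12 (SE 0.09), the nucleolar GTPase gene Gnl2 by 1.11 (SE 0.08), Nop58, a core protein of box C/D particles, by 0.80 (SE 0.10), and Polr1a, the large subunit of RNA polymerase I, by 0.40 (SE 0.09). Nop10 and Dkc1, from the other class of particle, fell by 0.55 (SE 0.07) and fell by 0.62 (SE 0.11). Initiation factors lay below the background shares in the upward direction, with 10 of 54 higher (18.5%) and 14 lower (25.9%), or 8 lower with upper-quartile scaling. Eif1a, which helps to find the start codon, rose by 1.29 (SE 0.12). The helicase gene Eif4a2 and its partner Eif4b fell by 0.67 (SE 0.07) and fell by 0.56 (SE 0.06).

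Genes of mitochondrial upkeep, from import and ribosomes to coenzyme Q and inner membrane shape, fell more often than they rose. In the list of protein import, 17 of 31 genes fell and 1 rose (median -0.30). Samm50, which inserts proteins into the outer membrane, stood at 56.1 to 65.6 CPM in CT (median 59.8) and 29.9 to 40 CPM in C26 (median 33.7) and fell by 0.81 (SE 0.07). Timm44, which tethers the import motor to the inner membrane, fell by 0.69 (SE 0.06), and Hspa9, the motor's heat shock protein, fell by 0.56 (SE 0.06).

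Among 77 mitochondrial ribosomal proteins, 12 rose, 34 fell and 31 were not called (median -0.18). Mrps35 and Mrpl9 fell by 0.87 (SE 0.09) and fell by 0.77 (SE 0.07), while Mrpl17 rose by 0.56 (SE 0.07). The list therefore did not move as a block. Of 13 genes for coenzyme Q, the lipid electron carrier of the respiratory chain, 9 fell and 4 were not called. Coq8a, an atypical kinase needed for its synthesis, stood at 142 to 206 CPM in CT (median 181) and 27.4 to 64.6 CPM in C26 (median 40.2) and fell by 2.07 (SE 0.16), and the methyltransferase gene Coq5 fell by 0.61 (SE 0.07).

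Genes of fission, fusion and cristae were lower in 12 of 17 cases and higher in 2 (median -0.46). Opa1, the GTPase that fuses inner membranes, fell by 1.06 (SE 0.07) without overlap, from a median of 92.1 to 43.8 CPM. Immt, the core of the complex at cristae junctions, fell by 0.67 (SE 0.06).

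Carriers of the inner membrane, the SLC25 family, split into 10 higher and 20 lower of 42. Slc25a15, which brings ornithine in for the urea cycle, rose by 1.19 (SE 0.11), with a median of 267 CPM in CT (range 237 to 296) and 629.6 CPM in C26 (range 511 to 732). Slc25a13, the liver's aspartate and glutamate exchanger, fell by 0.82 (SE 0.10). Genes of peroxisome assembly fell more often than they rose, with 11 of 22 lower and 2 higher. Abcd3, an importer of long-chain acyl groups, fell by 1.55 (SE 0.13), and Pex7, the receptor that brings in enzymes with the second type of targeting signal, fell by 0.84 (SE 0.09).

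Heat shock and chaperonin genes outside the ER fell more often than they rose. Of 25, which include the mitochondrial chaperonin genes Hspd1 and Hspe1, both lower, 2 rose and 13 fell (median -0.20), but with upper-quartile scaling only 5 were called lower. The chaperonin genes Cct4 and Cct8, whose product folds actin and tubulin, fell by 0.51 (SE 0.06) and fell by 0.35 (SE 0.06). Hspb8, a small heat shock protein, rose by 1.07 (SE 0.12), and Bag3, its partner in clearing misfolded proteins, by 1.05 (SE 0.08). Bag3 belongs to a separate list of 16 BAG and HSP90 co-chaperones, in which it alone rose, 4 fell and 11 were not called. Fkbp4, which links HSP90 to steroid receptors, fell by 1.02 (SE 0.10).

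J-domain proteins, which hand clients to HSP70, were called about as often as all genes, 12 of 40 higher and 10 lower. Within them Dnajc12, a co-chaperone of the aromatic amino acid hydroxylases, was the outstanding value, at 4.29 to 6.89 CPM in CT (median 4.92) and 60.3 to 109.8 CPM in C26 (median 95), a log2 change of 4.12 with SE 0.20, adjusted p = 1.18e-14. The ER member Dnajb11 rose by 1.02 (SE 0.08).

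Ubiquitin-specific proteases, which remove ubiquitin, were lower in 22 of 42 cases and higher in 5. Usp2, whose level follows the circadian clock in liver, fell by 2.84 (SE 0.24), and the proteasome-bound Usp14 fell by 0.57 (SE 0.06). Cathepsins, the proteases of lysosomes, were higher in 9 of 14 cases and lower in 2. Ctsc, which activates granule proteases, stood at 29.1 to 50.1 CPM in CT (median 45) and 218 to 296 CPM in C26 (median 230.1) and rose by 2.52 (SE 0.12), Ctsl rose by 1.74 (SE 0.12), and Ctse fell by 1.71 (SE 0.17). Core autophagy genes were called in both directions, 7 of 33 higher and 12 lower. Within the family that coats the autophagosome, Map1lc3b rose by 1.07 (SE 0.10) and Gabarapl1 fell by 1.33 (SE 0.09), with a median of 317 CPM in CT (range 286 to 326) and 122 CPM in C26 (range 93.7 to 154).

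The breakdown of valine, leucine and isoleucine was the list with the highest share of falling genes among those with over 10 genes tested. Of 21 genes, 19 fell and 2 were not called (median -0.58), and in 17 of them no C26 library reached the lowest CT library, against 15.3% of all genes. Mccc1, a carboxylase subunit of leucine breakdown, stood at 54.7 to 57 CPM in CT (median 56) and 27.4 to 33.5 CPM in C26 (median 29.3), a log2 change of -0.91 with SE 0.05, adjusted p = 5.72e-13. Pcca, the propionyl-CoA carboxylase subunit after valine and isoleucine, fell by 1.22 (SE 0.07), and Hibadh, a dehydrogenase of valine breakdown, fell by 1.26 (SE 0.10).

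Genes of the pentose phosphate pathway and of NADPH supply fell in 10 of 14 cases and rose in 2. Transketolase, Tkt, fell by 1.21 (SE 0.12), the cytosolic malic enzyme Me1 fell by 2.29 (SE 0.21) and the mitochondrial isocitrate dehydrogenase Idh2 fell by 0.93 (SE 0.08). The members that rose were the first enzymes of the pathway, the cytosolic G6pdx (0.93, SE 0.14), at a low level of 4.26 to 6.48 CPM in C26, and its ER counterpart H6pd (0.98, SE 0.13), at 363 to 492 CPM in CT (median 426) and 663 to 1153 CPM in C26 (median 806).

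In the list of fructose, galactose and mannose, 7 rose, 8 fell and 3 were not called. Ketohexokinase, Khk, which takes up fructose carbon, fell by 1.24 (SE 0.16), Tkfc, the triokinase after it, fell by 1.58 (SE 0.22), and Galm, which turns galactose to its usable form, fell by 1.42 (SE 0.13). Gmppb, which makes the sugar donor GDP-mannose, rose by 1.09 (SE 0.12).

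In folate metabolism 5 of 21 genes rose and 9 fell. Mthfd2, the mitochondrial enzyme typical of dividing cells, rose by 2.25 (SE 0.30) from a low level, at 0.469 to 2.14 CPM in CT (median 0.953) and 4.12 to 8.96 CPM in C26 (median 4.96). Shmt2, the mitochondrial serine enzyme, fell by 0.74 (SE 0.08). Around serine, 4 of 8 genes rose and 1 fell. Sds and Sdsl, which turn serine to pyruvate, rose by 1.16 (SE 0.15) and by 2.39 (SE 0.28), and Cbs, which draws serine into cysteine synthesis, by 0.67 (SE 0.10). Psat1 of serine synthesis rose by 2.68 (SE 0.48), but its groups overlapped, at 0.213 to 0.716 CPM in CT (median 0.392) and 0.239 to 7.43 CPM in C26 (median 2.47).

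Polyamine genes were higher in 4 of 16 cases and lower in 7. Odc1, the first enzyme, was not called (-0.17, SE 0.11, adjusted p = 0.199), and Azin1, which protects it from decay, fell by 0.85 (SE 0.08). For purines, 13 rose, 18 fell and 11 were not called of 42. Uox, the urate oxidase of peroxisomes, stood at 2000 to 2459 CPM in CT (median 2310) and 449 to 1106 CPM in C26 (median 860.5) and fell by 1.55 (SE 0.19). Pnp, which splits nucleosides and has the close copy Pnp2 beside it, rose by 1.14 (SE 0.12).

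Enzymes of B vitamins fell more often than they rose, 15 against 8 of 27. Slc5a6, the importer of biotin and pantothenate, fell by 1.49 (SE 0.17), and the kinases that start coenzyme A synthesis, Pank1 and Pank3, fell by 0.95 (SE 0.15) and fell by 0.91 (SE 0.11). Rfk, which makes the flavin coenzyme FMN from riboflavin, rose by 0.99 (SE 0.11).

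Steroid and lipid enzymes moved by class. Of 25 hydroxysteroid dehydrogenases and steroid reductases, 1 rose and 20 fell (median -1.04). Srd5a1, the steroid 5-alpha-reductase of liver, stood at 102 to 135 CPM in CT (median 116) and 8.86 to 27.1 CPM in C26 (median 16) and fell by 2.90 (SE 0.20). Akr1c19, an aldo-keto reductase, fell by 3.50 (SE 0.27), and Hsd17b11, a dehydrogenase of lipid droplets, fell by 1.11 (SE 0.08). Members of these families share sequence, and how reads that fit several copies were counted is not given in the sources used here.

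Sphingolipid genes rose in 18 of 33 cases and fell in 8 (median 0.35). Sptlc2, a subunit of the enzyme that starts the pathway, stood at 16.3 to 17.3 CPM in CT (median 16.9) and 48.5 to 70.6 CPM in C26 (median 58), a log2 change of 1.80 with SE 0.10, adjusted p = 3.51e-13. Smpd3, a sphingomyelinase that releases ceramide, rose by 3.63 (SE 0.20), and Sphk2, which makes sphingosine 1-phosphate, by 1.07 (SE 0.10). Gba2, a glucosylceramidase outside lysosomes, fell by 1.20 (SE 0.12), and it overlaps Rgp1 on the opposite strand, called lower too.

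The phospholipid list tended the other way, with 8 of 31 higher and 14 lower. Lpin2, a phosphatidate phosphatase, fell by 1.93 (SE 0.14), Lpcat3, which puts polyunsaturated chains into phospholipids, fell by 1.29 (SE 0.08), and Chpt1, the last step of phosphatidylcholine synthesis, fell by 1.07 (SE 0.09). Chka, the choline kinase, rose by 1.25 (SE 0.30) with overlapping groups. Pemt, the liver's other route to phosphatidylcholine, was not called (-0.18, SE 0.10, adjusted p = 0.14).

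Retinoid genes fell in 15 of 30 cases and rose in 9. Stra6l, the liver's receptor for circulating retinol carriers, rose by 1.52 (SE 0.13). Retsat, which saturates retinol, fell by 1.48 (SE 0.18), and Rdh7, a retinol dehydrogenase, fell by 0.55 (SE 0.06).

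**Figure D3:**
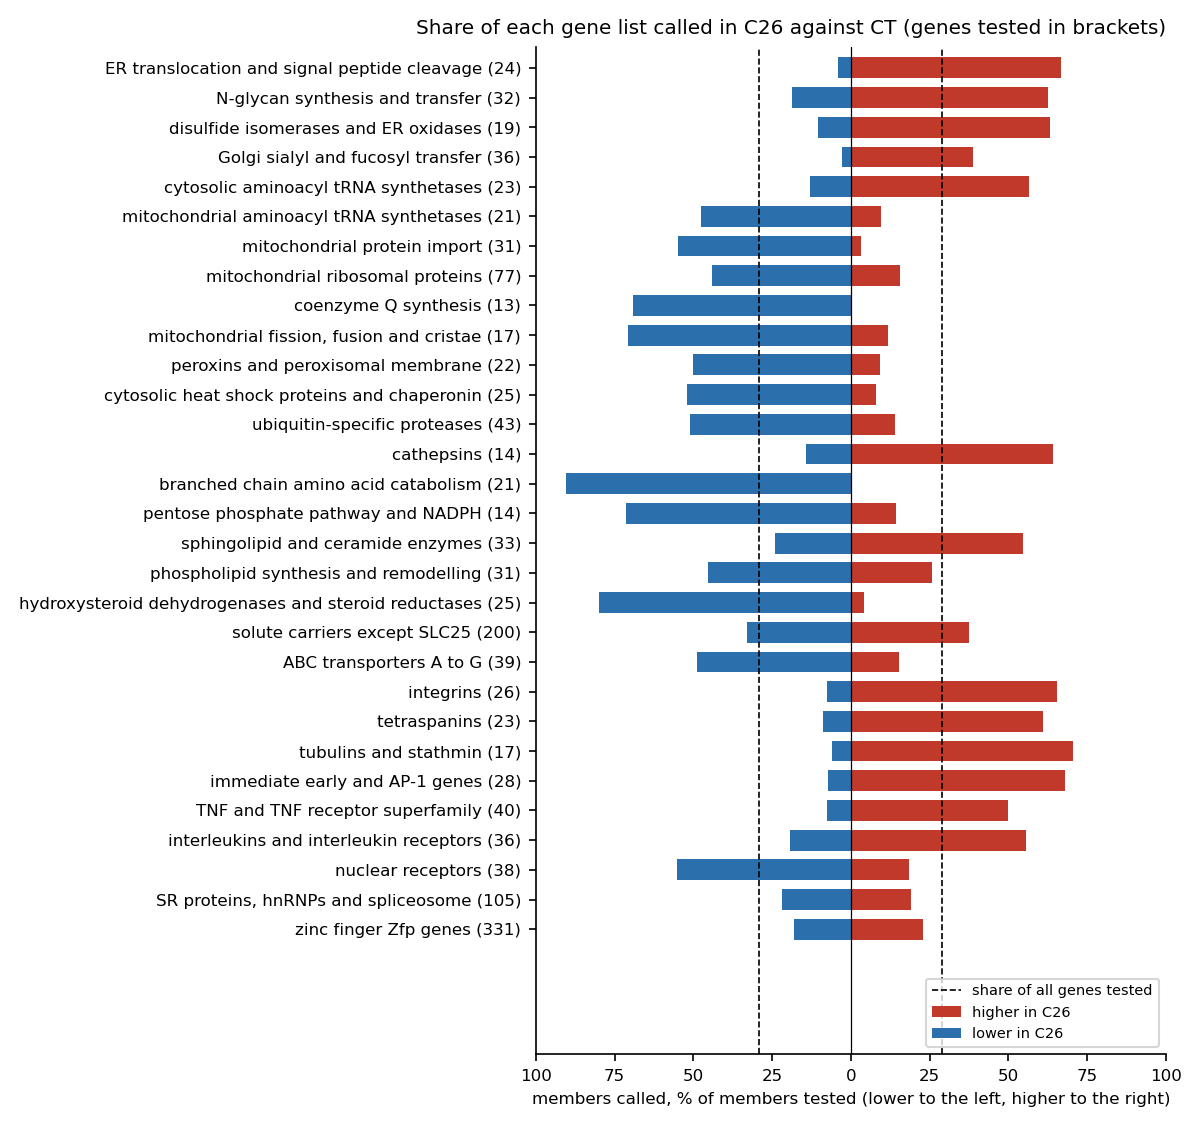
Share of the tested members of 30 gene lists that were called higher (red, to the right) or lower (blue, to the left) in C26, in percent, with the number of genes tested in brackets. Dashed lines mark the shares over all genes tested, 28.9% higher and 29.2% lower. The fall of branched chain amino acid catabolism (90.5%) and of hydroxysteroid dehydrogenases (80%) and the rise of tubulins (70.6%) reach far beyond these lines, while spliceosome and Zfp genes lie inside them. The ubiquitin-specific list is drawn with Usp6nl, which is no protease, and the heat shock list with Hspd1 and Hspe1.

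Genes of membrane transport changed in both directions, as all genes did. Of 200 solute carriers outside the SLC25 family, 75 rose (37.5%) and 66 fell (33%), against 28.9% and 29.2% of all genes. Slc41a2, a magnesium transporter, stood at 6.81 to 11.6 CPM in CT (median 8.74) and 179 to 260.3 CPM in C26 (median 222), a log2 change of 4.64 with SE 0.12, adjusted p = 4.62e-20, and Slc37a1, an ER sugar phosphate exchanger, at 2 to 2.94 CPM in CT (median 2.66) and 50.2 to 62.9 CPM in C26 (median 58.5), a log2 change of 4.50 with SE 0.11, adjusted p = 3.93e-20. Slc22a28, an organic anion transporter, fell by 3.57 (SE 0.23). Slc2a2, the glucose transporter GLUT2 of hepatocytes, fell by 3.08 (SE 0.31), with a median of 419 CPM in CT (range 371 to 452) and 44.8 CPM in C26 (range 15.9 to 105).

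Carrier families are given by count. Among the families with at least 7 genes tested, the amino acid exchangers Slc7 had 6 of 9 higher and 2 lower (median 1.68), and the organic ion transporters Slc22 had 8 of 12 lower and 4 not called (median -0.37). Slc7a5, an exchanger of large neutral amino acids, rose by 1.89 (SE 0.17) from a median of 2.61 to 10.3 CPM, and Slc7a1, the importer of arginine, by 1.77 (SE 0.29) from 0.54 to 1.84 CPM. Slc38a2, which takes up glutamine and alanine, rose by 1.04 (SE 0.17). The zinc importers Slc39 had 7 of 13 higher and 2 lower. Slc39a14, known for the uptake of zinc and iron by inflamed liver, rose by 1.63 (SE 0.10), while Slc39a4, the intestinal-type importer, fell by 1.56 (SE 0.10).

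ABC transporters fell in 19 of 39 cases and rose in 6. Abca8a fell by 2.57 (SE 0.14), and Abcc9, a subunit of ATP-sensitive potassium channels, rose by 0.84 (SE 0.11). Of 30 potassium channel genes, 10 rose (33.3%) and 6 fell (20%). Kcnt2, a sodium-activated channel, rose by 2.24 (SE 0.28), and Kcnk5, a leak channel, fell by 2.13 (SE 0.23). Of 9 genes of the sodium pump and its FXYD partners, 7 rose and 2 fell, among the former Fxyd5 (1.34, SE 0.19).

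Aquaporins let water and glycerol through. Aqp8, Aqp11 and Aqp4 fell by 2.35 (SE 0.27), fell by 2.11 (SE 0.11) and fell by 1.76 (SE 0.25). Aqp1, known from endothelium and bile ducts, rose by 1.01 (SE 0.10). Markers of sinusoidal endothelium rose in 10 of 13 cases beside it, with a summed level of 388 to 468 CPM in CT and 481 to 796 CPM in C26, and their part in its rise was not tested.

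Junction and adhesion genes had shares of rising members above the background of 28.9%. This held for tight junctions, connexins, cadherins and catenins (40.9%), integrins and tetraspanins. Of 25 tight junction genes, 13 rose, 5 fell and 7 were not called. Cldn14 and Cldn2, which seal or open the space between cells, rose by 1.87 (SE 0.11) and by 1.23 (SE 0.09), and Lsr, which marks the corners where 3 cells meet, by 1.34 (SE 0.09). Marveld1 fell by 1.83 (SE 0.19). Among 7 connexin genes of gap junctions, 4 rose, 1 fell and 2 were not called. Gja1 and Gjb2 rose by 2.40 (SE 0.13) and by 0.96 (SE 0.07), while Gjb1, the main connexin of hepatocytes, fell by 0.36 (SE 0.06). Each of these 3 had groups that did not overlap.

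Integrins, the receptors for matrix, rose in 17 of 26 cases and fell in 2 (median 0.57). Itga5, the fibronectin receptor chain, stood at 13.7 to 19.8 CPM in CT (median 17.4) and 36.2 to 51.3 CPM in C26 (median 43.4) and rose by 1.35 (SE 0.10), and Itga7, a laminin receptor chain, by 1.36 (SE 0.08). Tetraspanins, which organise integrins in the membrane, rose in 14 of 23 cases and fell in 2 (median 0.76), with Cd9 at 2.29 (SE 0.19), Tspan7 at 1.58 (SE 0.08) and Tspan9 at 1.52 (SE 0.12). Both lists include members of blood cells, and beside them 11 of 12 neutrophil and monocyte, 12 of 14 Kupffer cell and 10 of 13 endothelial markers were higher, whose part in these counts was not tested. Cadherins and catenins were mixed, 9 of 22 higher and 6 lower. The endothelial cadherin Cdh5 rose by 1.0 (SE 0.14), and Cdh3, with 42 raw counts over the CT libraries, by 4.12 (SE 0.31). The plakophilin gene Pkp4 fell by 1.01 (SE 0.08).

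In the cytoskeleton, tubulins and their helpers rose in 12 of 17 cases and fell in 1 (median 0.61). Tuba1c and Tubb4b rose by 0.91 (SE 0.10) and by 0.88 (SE 0.10). Of 41 actin and actin-regulating genes, 19 rose, 6 fell and 16 were not called. Tagln2 and Tpm1, which bind and stabilise filaments, rose by 1.70 (SE 0.12) and by 1.05 (SE 0.08), and Rdx, the radixin that anchors the bile canaliculus to actin, fell by 0.69 (SE 0.07). Myh9, the non-muscle myosin heavy chain, stood at 130 to 149 CPM in CT (median 136) and 335 to 448 CPM in C26 (median 396) and rose by 1.49 (SE 0.08). Krt18, the keratin of hepatocytes and bile ducts, rose by 1.38 (SE 0.11), and Lmna, the nuclear lamin A, by 1.01 (SE 0.07).

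Growth factor signals of the TGF-beta and BMP family rose in 23 of 50 cases and fell in 12. Inhbb, which encodes the subunit of activin B, an inducer of hepcidin in inflamed liver, stood at 0.0525 to 1.62 CPM in CT (median 0.878) and 8.66 to 20.2 CPM in C26 (median 13.2) and rose by 4.0 (SE 0.29). Bmper, a secreted BMP modulator, rose by 5.42 (SE 0.38) from 43 raw counts over the CT libraries. Smad9, a receptor-regulated SMAD of the BMP branch, stood at 15.5 to 24.9 CPM in CT (median 21.3) and 1.49 to 3.35 CPM in C26 (median 1.71) and fell by 3.39 (SE 0.18) without overlap, while Smad1, of the same branch, rose by 0.92 (SE 0.07).

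Igfbp1, an insulin-like growth factor carrier that rises in fasting and inflammation, stood at 3.19 to 15.1 CPM in CT (median 7.24) and 31.9 to 213 CPM in C26 (median 105) and rose by 3.77 (SE 0.53). Igfbp2 and Igfbp3, other carriers of the same growth factors, fell by 2.40 (SE 0.33) and fell by 1.91 (SE 0.19), and the growth hormone receptor Ghr fell by 1.51 (SE 0.17). Of the 11 genes in the list of these carriers, which holds Ghr too, 4 rose (36.4%), 5 fell (45.5%) and 2 were not called. The members that rose beside Igfbp1 are not named here. Wnt genes stayed near the background, 7 of 33 higher and 9 lower. The receptors Fzd8 and Fzd4 fell by 1.79 (SE 0.13) and fell by 1.43 (SE 0.11), and Notum, which inactivates Wnt ligands, fell by 2.01 (SE 0.20). In cyclic AMP signalling, 10 of 32 genes rose (31.2%) and 8 fell (25%), near the shares of all genes. Among those that rose, Adcy1, a calcium-driven adenylyl cyclase, rose by 4.65 (SE 0.43) from 96 raw CT counts. Creb3l2, an ER-anchored transcription factor, rose by 1.54 (SE 0.12). The 8 that fell are not named here.

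Nuclear receptors, the ligand-gated transcription factors that set much of liver metabolism, fell in 21 of 38 cases and rose in 7 (median -0.39). Esrra, a driver of mitochondrial genes, fell by 1.34 (SE 0.12), and Nr3c2, the mineralocorticoid receptor, fell by 1.35 (SE 0.12). The oestrogen receptor Esr1 stood at 10.1 to 21.7 CPM in CT (median 13.3) and 36.5 to 51.7 CPM in C26 (median 47.1) and rose by 1.66 (SE 0.14), and Nr5a2, which steers bile acid genes, by 0.67 (SE 0.07). The other transcription factors of hepatocyte identity were split, 11 of 26 higher and 8 lower. Gata6 rose by 1.74 (SE 0.13) and Foxa1 fell by 1.38 (SE 0.18). Onecut1 fell by 0.72 (SE 0.25) with overlapping groups and was not called without CT 05 (-0.54).

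The 11 lists of nuclear genes had 14.3% to 40% of their members higher and 18% to 33.3% lower, on both sides of the backgrounds of 28.9% and 29.2%. Histone genes were the list with 40% higher, and nucleoporins and importins that with 33.3% lower. Of 105 splicing genes, 20 rose (19%) and 23 fell (21.9%), against 34 and 14 with upper-quartile scaling. Of 331 zinc finger genes with Zfp symbols, 76 rose (23%) and 60 fell (18.1%). Histone lysine methyltransferases and demethylases were higher in 17.6% and lower in 25.5% of 51 genes, and DNA repair genes in 25% and 28.3% of 60. By annotation class, protein-coding genes were called higher in 30.8% and lower in 29.4% of 12901, long intergenic non-coding RNAs in 22.1% and 29.4% of 398, and antisense RNAs in 13.9% and 29.2% of 380.

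Cell type markers were read for the whole lists. Neutrophil and monocyte markers had the highest median among the cell type lists (2.68), and S100a8 of neutrophils stood at 0.0997 to 0.953 CPM in CT (median 0.199) and 1.29 to 4.66 CPM in C26 (median 2.23). The Kupffer cell lectin Clec4f rose by 0.52 (SE 0.08). Sinusoidal endothelial markers had a median of 0.55, with the hyaluronan receptor gene Stab2 at 0.54 (SE 0.23) and adjusted p = 0.0498, close to the threshold, and not called in 9 of the 14 fits that left out 1 library. Stellate cell markers rose in 8 of 12 cases and fell in 2, and Reln, which those cells secrete, fell by 0.43 (SE 0.13).

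Among 8 markers of bile duct cells, 4 rose and 4 were not called, but the keratin gene Krt19, which defines them, was not called (-0.18, SE 0.57, adjusted p = 0.811), at 0.105 to 3.24 CPM in CT (median 0.477) and 0.233 to 2.30 CPM in C26 (median 0.568). Spp1, which encodes osteopontin, stood at 15.5 to 23.4 CPM in CT (median 17.1) and 222 to 727 CPM in C26 (median 390.3) and rose by 4.45 (SE 0.31), and Sox9, a transcription factor of duct cells, rose by 4.11 (SE 0.42). The proliferation marker Mki67 was not called (0.81, SE 0.42, adjusted p = 0.0992), and over the list 7 of 21 rose and 2 fell. Of 22 T and NK cell markers listed, 10 were in the deposited table and 5 had enough counts to be tested. Of these 5, 2 fell and 3 were not called. The 10 summed to 5.19 to 8.80 CPM in CT and 2.87 to 5.02 CPM in C26.

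Of 8 genes in the list of red cell markers, 5 rose and 3 fell, and their cell source was not tested. The globin gene Hbb-bs rose by 2.17 (SE 0.30), with a median of 35.8 CPM in CT (range 22.9 to 54.1) and 152 CPM in C26 (range 70 to 359.9), and Hba-a1 by 2.05 (SE 0.31). Alas2, the erythroid form of the first haem enzyme, fell by 1.77 (SE 0.27), with a median of 205 CPM in CT (range 186 to 224) and 64.4 CPM in C26 (range 19.2 to 111). In CT, every Alas2 value lay above all values of Hbb-bs and of Hba-a1 (13.4 to 33.2 CPM). Globin genes have near-identical copies, so that reads may be split between them. The exocrine pancreas marker Cela1, an elastase, fell by 2.04 (SE 0.41), with CT libraries at 34.2 to 41.4 CPM and C26 libraries at 5.82 to 14.7 CPM, and it was the only pancreas marker of the list tested. Of 14 listed markers of intestinal epithelium, which tumour cells of colon origin could carry, 6 were in the deposited table. Of these 6, 2 rose, 2 fell and 2 were not called. Both that rose are keratins that hepatocytes also express, Krt8 and Krt18, and the other 4 summed to 239.6 to 259 CPM in CT and 166.3 to 228.1 CPM in C26.

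**Figure D4:**
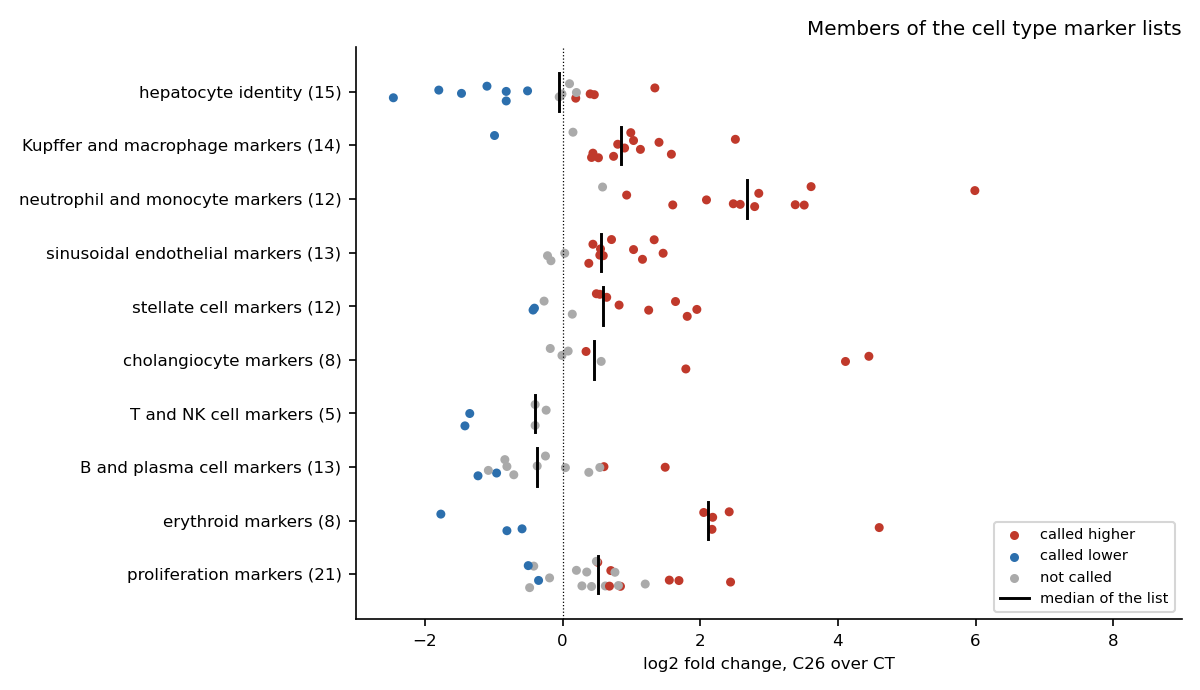
Log2 fold change of each tested member of 10 marker lists, with called genes in red (higher) and blue (lower), other genes in grey and a black bar at the median of the list. The neutrophil and monocyte list has a median of 2.68 and the hepatocyte list of -0.05.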

How the data were processed

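Liver RNA of 22 mice was measured, of which 14 libraries (6 CT, 8 C26) are compared here. The deposited table holds raw counts per gene, made by the authors. Per the submitters' processing notes, the genome build was GRCm38. Those notes name HISAT2 2.2.1 and featureCounts 2.0.3, and also Trimmomatic 0.40, FastQC, bcl2fastq 2.17 and DESeq2 1.42.0. The strand setting is not given in the sources used here, nor is the annotation release or how multi-mapped reads were handled. Gene symbols came from GENCODE M21, which held 15443 of the 15448 identifiers.

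Counts were scaled by TMM and fitted with edgeR 4.0.16 in R 4.3.3, with a mean for each of the 3 groups over all 22 libraries, after filterByExpr with a minimum count of 10 had removed 663 genes. The quasi-likelihood F test gave p-values, adjusted over all 14785 genes by the Benjamini-Hochberg method. The SE is the log2 fold change divided by the square root of F, an approximation. The common biological coefficient of variation was 17.5%. The deposited counts of libraries within a group differed by more than counting noise in every pair, so none was counted as a repeat. The alternatives were upper-quartile scaling, size factors from DESeq2, the test of DESeq2 1.42.0, no filter on low counts, the 14 libraries alone, a replicate block, a loess trend (span 0.3) on length and GC content, and each library left out. The test was run before use on simulated data with known changes. These were in far fewer genes than were called here and equally up and down, so that the run cannot check the scaling.

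The gene lists and members were chosen with earlier results of these data known. Genes named are, for each of 102 lists, up to 3 called genes in each direction by p (mean of 5 CPM or more in the group with more), defining genes marked in the lists, and, over all genes, up to 12 in each direction by fold with at least 10 CPM, leaving out acute phase and drug metabolism genes. By this rule 220 of the 236 genes were named, and 16 were named after their values were seen (among them Socs1, Osmr, Igfbp2, Slc7a1, Slc7a5 and Slc2a2). Of the 236 genes, 127 overlap another annotated gene, and 30 of these overlap one called the same way. Only some of these 30 are marked where they are named. Those not marked include Rgs16, Slc13a5, Cyb561, Acot3, Coq8a, Srd5a1, Uox, Cebpd and Notum. The text describes only part of the lists, and some genes that meet the rule are not reported here.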

Additional observations from a re-analysis of the deposited data

Results flagged for a closer look

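In each of the 236 named genes, the highest and lowest library of each group was compared with its nearest neighbour by Dixon's criterion (0.625 of the range for 6 libraries, 0.526 for 8). Of 472 sets, 38 values passed it, where chance flags about 1 in 20, which is 23.6 here. The value follows the gene, with that of the nearest other library of the group after it, in CPM. C26 02 stood apart in Hcn3 at 3.58 against 0.765, Rgs16 at 14.4 against 5.13 and Slco1a1 at 130 against 61.7. It also stood apart in Hsd3b5 at 58.9 against 25.4, Alg12 at 7.47 against 12.8 and Gatb at 21.4 against 18.2. Further such values were Nars2 at 13.9 against 10.7, Fkbp4 at 72.4 against 59 and Me1 at 91.2 against 39.4. Others were Khk at 241 against 139, Tkfc at 252 against 122 and Pank1 at 211 against 141. The last of these were Kcnk5 at 29 against 18.2 and Mki67 at 6.51 against 3.41. C26 04 stood apart in Tlr2 at 21.6 against 12.1, Pdia6 at 517 against 453 and Psat1 at 7.43 against 3.43. It also stood apart in Gja1 at 19.1 against 13.7 and S100a8 at 4.66 against 2.85. C26 01 stood apart in Hspa9 at 287 against 324. C26 03 stood apart in Ctsc at 295 against 254. C26 07 stood apart in Smad9 at 3.35 against 2.15. C26 08 stood apart in Klf10 at 12.1 against 16.7 and Krt19 at 2.3 against 0.896. CT 01 stood apart in Btg2 at 14.4 against 6.33, Fos at 2.69 against 0.736 and Egr1 at 63.2 against 16.5. It also stood apart in Eif4a2 at 255 against 273. CT 02 stood apart in Il33 at 1 against 1.84, Cdh5 at 22.5 against 16.6 and Krt19 at 3.24 against 0.847. CT 06 stood apart in Socs1 at 1.47 against 0.49, Myc at 47 against 10 and Stt3a at 114 against 99.8. CT 07 stood apart in Mrps35 at 31.4 against 26. CT 08 stood apart in Ddost at 79.6 against 85.5, Notum at 29.3 against 22 and Stab2 at 82.4 against 50.3. Of the 14 values of C26 02, 13 lay towards the CT level, and all 4 of CT 01 lay towards the C26 level.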

How the results depend on the processing

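The counts of genes called, 4266 higher and 4321 lower, stayed within 1.5 times under each alternative run. They were 4305 and 4283 with DESeq2 size factors, 4889 and 3708 with upper-quartile scaling, which moved the median change of all genes by 0.07, 4357 and 4385 without the filter on low counts, 4227 and 3911 in a fit of the 14 libraries alone, 4316 and 4492 with the trend on transcript length and GC content removed, and 4474 and 4424 with DESeq2's test. Leaving out each library in turn gave 4078 to 4341 higher and 4115 to 4367 lower. Upper-quartile scaling moved the counts of 14 list directions by more than 1.5 times, among them lower heat shock genes from 13 to 5 and higher splicing genes from 20 to 34, and the length and GC trend those of 9, such as lower myosins from 5 to 9. Without C26 04, lower TNF superfamily genes went from 3 to 5, and the cause of these moves was not tested.

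Replicate numbers are shared between the groups. The deviations of same-numbered libraries correlated between -0.075 and 0.048, so that no pairing was seen over all genes. This measure cannot exclude that same-numbered mice shared a cage or a day. With a replicate block, 3725 genes were called higher and 3548 lower, and 17 list directions moved by more than 1.5 times. Of the 6 shared numbers, 1 (06) had its own number as the best match. The sign of Krt19, not called, turned to 0.25 with the replicate block, and its change ran from -0.70 to 0.89 over the libraries left out, with the sign turned without CT 02. The change of Myc, not called, ran from -1.20 to 0.20, with the sign turned without CT 06. Stab2 was not called with the replicate block (0.46), without the filter (0.54), with DESeq2 (0.54) or with the length and GC trend removed (0.45), nor without C26 01, 03, 06 or 08 or CT 01, 02, 05, 06 or 07 (0.42 to 0.56). Onecut1 was not called without CT 05 (-0.54), and no other named gene lost its call when 1 library was left out. Sec62 also lost its call with the replicate block (-0.15), whereas Egr1 was called with it (1.81) and Mki67 in the 14 libraries alone (0.84). Genes with few counts in a group, such as Igdcc4 with 19 in CT, have folds limited by depth.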
